A study of Saccharomyces cerevisiae with 6 samples.

Results

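The genes described here encode chromatin remodelling complexes and their close partners in the budding yeast Saccharomyces cerevisiae. They were chosen by name, as 35 of the 6603 open reading frames measured: 6 of SWI/SNF, 14 of RSC, the ARP7 and ARP9 pair that both complexes share, INO80 and SWR1, 7 of the CHD1 and ISW remodellers, MOT1 and FUN30, and the bromodomain pair BDF1 and BDF2. The choice was made with earlier results of these data known. All 35 had a row in the deposited table and passed the filter on low values (a mean of at least 10 normalised reads). RNA was extracted from untreated log-phase cells of BY4741, a laboratory strain of mating type a that lacks LEU2, URA3 and MET17 and carries a deletion in HIS3, and the RNA that assembled in vitro without protein was set against total RNA, with 3 libraries in each group. The assembly group was total yeast RNA placed in 150 mM NaCl, 10% polyethylene glycol, 1 mM MgCl2 at 150 µg/mL, from which the assemblies were pelleted by centrifugation, resuspended and depleted of ribosomal RNA with Ribo-Zero. The total RNA group was RNA of the same strain, also depleted of ribosomal RNA; the labels give the same buffer text for it, so how it was handled is not settled.

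Chromatin remodellers use the energy of ATP to slide, evict or restructure nucleosomes. Each is built around an ATPase of the Swi2/Snf2 family, a very large protein, and most carry further subunits that range from scaffolds and histone readers to small accessory proteins. SWI/SNF and RSC are related complexes that hold several homologous subunits. What was measured here is the mRNA of each subunit, as pure RNA in a tube, and not the complexes themselves.

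Libraries held 8749240 to 10531980 reads on open reading frames, and the 35 genes together took 0.838% ± 0.0511 of the normalised reads in the assembly libraries, against 0.491% ± 0.0271 in those of total RNA (SD, n = 3 each). Values are normalised reads: the read count of an open reading frame divided by 1 size factor per library, so every fold change is relative to the typical gene rather than to the whole library. Scaling every library to the same total instead moved the log2 fold change of the median gene by -0.56. The labels leave out whether replicate libraries trace to different cultures or reactions, and the spread behind each p-value may therefore be technical. The closest pair was total RNA 1 and 2, whose reads differed by a chi-square of 1.56 per degree of freedom, where the other pairs within groups gave 11.7 to 57.5. Averaged into 1 sample, they left the same number of members called, 26 higher and 7 lower. LEU2 and MET17 were at 0 in all 6 libraries, URA3 reached at most 0.862 normalised reads, HIS3 had 158.6 to 293 and the a-cell receptor gene STE2 3381 to 4986. Of 3 genes of alpha cells, MFALPHA1 had 2.56 to 7.26 normalised reads and STE3 4.87 to 34.95, while SAG1 had 169.8 to 1174.

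Most remodeller mRNAs stood higher in the assemblies, and the direction followed the length of the coding sequence. Of the 35 genes, 26 were higher and 7 lower in assemblies, and 2, RSC6 and ARP7, were not called (limma, adjusted p threshold 0.05 over 5670 genes). Over all genes tested, 41.3% were called higher, 40.8% lower and 82.2% either way. A rise of at least 2-fold was called for 19 of the 35 (26.3% of all genes) and a fall of at least 2-fold for 3 (25.8% of all genes). The median log2 fold change was 1.26 over the members and 0.02 over all genes tested. Relative to the total RNA mean, assembly libraries 1, 2 and 3 gave member medians of 1.06, 1.28 and 1.35. The 3 assembly values lay entirely above the 3 total RNA values in 26 members and entirely below in 7, where 42.7% and 42.6% of all genes did so (85.3% without overlap either way). With equal library totals 19 members were called higher and 9 lower, against 27.9% and 53.7% of all genes. SNF12, NPL6 and IOC4, called higher with the deposited scaling, then turned to slightly negative values that were not called, and SWI3, RSC4, RSC9 and BDF1 were no longer called higher.

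**Figure D1:**
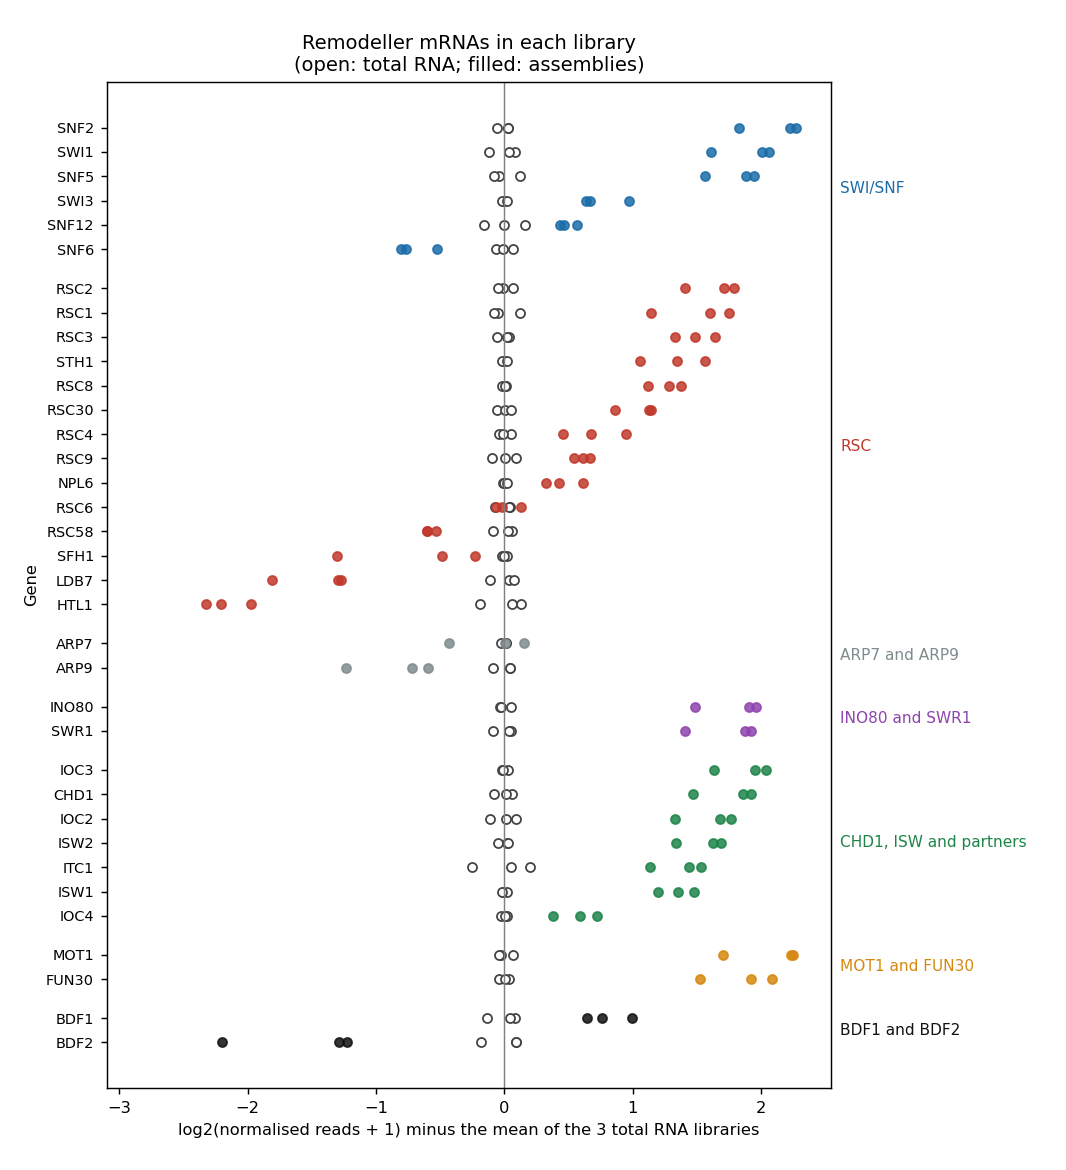
Each row is a gene, and the horizontal axis gives log2(normalised reads + 1) in each library minus the mean of the 3 total RNA libraries; open circles are total RNA and filled circles assemblies, coloured by complex. The 26 called higher lie right of all their open circles, the 7 called lower lie left, and RSC6 and ARP7 overlap.

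The ATPase genes all moved one way, where 41.3% of all genes were called higher and 26.3% rose at least 2-fold. They are all long, and 99.2% of all tested nuclear genes of 3000 nt or more were called higher. All 9 (SNF2, STH1, INO80, SWR1, CHD1, ISW1, ISW2, MOT1 and FUN30) rose at least 2-fold, with log2 fold changes from 1.32 for STH1 to 2.11 for SNF2 and coding sequences of 3363 to 5604 nt. SNF2 (YOR290C, chrXV:855147-860258 on the minus strand of R64), the ATPase of SWI/SNF, had 8396, 11437 and 11059 normalised reads in assemblies 1, 2 and 3 and 2413, 2413 and 2276 in total RNA, a limma fold change of 4.31 (log2 2.11, SE 0.14, adjusted p = 3.17e-07). Every assembly value was far above all total RNA values, and assembly 1 was the lowest of the 3. MOT1 (YPL082C, chrXVI:398480-404083 on the minus strand of R64), which removes the TATA-binding protein from DNA and has the longest coding sequence of the 35, had 10864, 15718 and 15928 normalised reads in assemblies against 3280.5, 3249.6 and 3493 in total RNA (fold 4.18, SE of the log2 value 0.16, limma adjusted p = 3.77e-07). FUN30 (YAL019W), an ATPase with roles in silencing and DNA end resection, had 4428, 5839 and 6529 against 1580.2, 1493 and 1547 (fold 3.59). In each of these genes assembly 1 was lowest and the groups stood far apart.

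INO80 (YGL150C), the ATPase of the complex of that name, had 4377, 6107 and 5876 normalised reads in assemblies against 1531, 1625 and 1536 in total RNA. SWR1 (YDR334W), which exchanges the histone variant H2A.Z into nucleosomes, had 3293, 4692 and 4540.5 against 1285, 1270.2 and 1162. Their log2 fold changes, 1.79 (SE 0.15) and 1.74 (SE 0.15), differed by less than their errors, and their coding lengths are 4470 and 4545 nt. All 11 members with a coding sequence of 3000 nt or more were called higher, as were 99.2% of all 477 tested nuclear genes of that length.

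SWI/SNF showed 5 genes higher and 1 lower, where 41.3% and 40.8% of all genes were. SWI1 (YPL016W), a DNA-binding subunit with an ARID domain, had 3044, 4025 and 4169 normalised reads in assemblies against 1055, 1026 and 919 in total RNA (log2 fold change 1.89, SE 0.15). SNF5 (YBR289W, chrII:779667-782384 on the plus strand of R64), a core subunit, had 1866, 2429 and 2337 against 687, 612 and 598 (log2 fold change 1.80, SE 0.14). The scaffold subunit SWI3 rose less, from 1048, 1036 and 1061 to 1632, 1668 and 2058 (0.76, SE 0.13), and SNF12 rose from 356, 284 and 316 to 429, 438 and 471 (0.49, SE 0.13). SNF6 (YHL025W), with 999 nt the shortest of the 6, fell from 348, 317 and 329.9 normalised reads to 230.2, 195 and 189.8 (log2 fold change -0.70, SE 0.13, limma adjusted p = 0.000362). The 3 assembly values of SNF6 lay below all 3 total RNA values. The share of 1 subunit in the complex's reads does not depend on the size factors. That of SNF2, the longest of the 6 genes, did not overlap between the groups. SNF2 supplied 53.8%, 56.6% and 54.5% of all SWI/SNF reads in assemblies 1, 2 and 3, and 40.8%, 42.4% and 41.4% in total RNA. The share of STH1, the longest gene of RSC, did not overlap either: it was 23.8% to 27.0% of RSC reads in assemblies and 19.2% to 19.7% in total RNA. Among single genes 85.3% had groups without overlap, so the lack of overlap is not a result about SNF2 or STH1. No background was computed for shares of this kind.

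SNF5, SNF6 and SWI1 had the highest shares of glutamine codons among the 35 genes. The longest runs, those of SNF5, IOC2 and SWI1, are shown because repeats of the glutamine codons CAA and CAG are a feature of the coding sequences that the choice of genes did not use. CAA and CAG made up 16.7% of the codons of SNF5, 9.31% of those of SNF6, which was lower in assemblies, and 8.44% of those of SWI1, where the median was 4.83% over the members and 3.68% over all nuclear genes. Capitals mark the longest unbroken in-frame run of CAA and CAG codons in SNF5 (37 codons), IOC2 (11 codons) and SWI1 (8 codons), with 15 bases on each side in lower case. The sequences are of the coding strand, read 5′ to 3′ from the RefSeq genome of build R64, at chrII:780345-780485 on the plus strand for SNF5, chrXII:329716-329778 on the minus strand for IOC2 and chrXVI:522040-522093 on the plus strand for SWI1.
SNF5: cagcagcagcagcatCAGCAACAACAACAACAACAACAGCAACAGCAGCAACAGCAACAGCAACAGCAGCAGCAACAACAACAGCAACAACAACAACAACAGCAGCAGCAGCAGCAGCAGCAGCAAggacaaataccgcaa
IOC2: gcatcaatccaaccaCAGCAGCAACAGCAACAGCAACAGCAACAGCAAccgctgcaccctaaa
SWI1: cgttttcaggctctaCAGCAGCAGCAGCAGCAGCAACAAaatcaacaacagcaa
SNF5 had the longest such run of all 5502 tested nuclear genes. A run at least as long as that of IOC2 was found in 43 of them (0.782%), as that of SWI1 in 74 (1.34%), and as the run of 6 codons in SNF6 in 115 (2.09%). Over the 35 members the share of these codons had no visible relation to the change adjusted for length and GC content, described further on (Spearman's rho -0.032, a description across genes that share libraries).

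RSC, the essential and more abundant relative of SWI/SNF, was mixed, with 9 genes higher, 4 lower and 1 not called of 14. Over all genes, 41.3% were higher and 40.8% lower. RSC2 (YLR357W), a bromodomain subunit, was highest: 3002, 3700.2 and 3907 normalised reads in assemblies against 1118, 1089 and 1179.8 in total RNA (log2 fold change 1.64, SE 0.13). Its gene overlaps the open reading frame YLR358C on the other strand by 514 bases, and reads there cannot be assigned with certainty. Its paralog RSC1 (1.497), the zinc-cluster DNA-binding proteins RSC3 (1.49) and RSC30 (1.04), the ATPase STH1 (1.32) and RSC8, the RSC relative of SWI3 (1.26), also rose. Smaller rises were called for the bromodomain subunit RSC4 (0.69), for the ARID-domain subunit RSC9 (0.61) and for NPL6, also known as RSC7 (0.45). RSC6 (YCR052W) had 947, 1083 and 977 normalised reads in assemblies against 1018, 939 and 1012 in total RNA, groups that overlapped (log2 fold change 0.02, SE 0.12, limma adjusted p = 0.901). RSC6 was called lower with equal library totals (-0.55, limma adjusted p = 0.000728) and with quantile normalisation (-0.52, limma adjusted p = 0.000454).

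The lower RSC genes were among its shortest. HTL1 (YCR020W-B), a small RSC subunit encoded by 237 nt on chromosome III, fell the furthest of the 35 genes, with 24.4, 20.6 and 18.9 normalised reads in assemblies against 103, 86.2 and 108 in total RNA (log2 fold change -2.17, SE 0.20, limma adjusted p = 1.04e-06). These were 16 to 20 reads per assembly library and 100 to 136 per total RNA library, the fewest of any member, so counting error alone is sizeable. The whole coding sequence of HTL1 is given to show how short the message is beside the others, at chrIII:155320-155556 on the plus strand of R64, with the start codon in capitals.
HTL1: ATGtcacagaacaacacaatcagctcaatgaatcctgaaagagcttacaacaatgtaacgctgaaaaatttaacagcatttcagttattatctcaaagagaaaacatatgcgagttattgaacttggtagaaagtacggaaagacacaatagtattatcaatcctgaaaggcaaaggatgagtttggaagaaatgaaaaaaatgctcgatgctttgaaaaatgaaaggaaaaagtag
LDB7 (YBL006C), or RSC14, a further small subunit (543 nt), had 398, 405 and 278 normalised reads in assemblies against 1003, 908 and 1035 in total RNA (log2 fold change -1.46, SE 0.16). SFH1 (YLR321C, chrXII:776584-777864 on the minus strand of R64), the RSC relative of SNF5, had 362, 433 and 205 against 514, 502 and 505 (-0.67, SE 0.22, limma adjusted p = 0.0144). Assembly 3 was the low one for SFH1, and without it the log2 fold change was -0.36. RSC58 (YLR033W), a bromodomain subunit, had 344, 361 and 344 against 544, 533 and 492 (-0.58, SE 0.12).

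ARP7 and ARP9 are actin-related proteins that bind to each other and sit in both SWI/SNF and RSC. ARP9 (YMR033W), the only one of the 35 whose coding sequence RefSeq gives in 2 parts, had 402, 367 and 257 normalised reads in assemblies against 571, 624 and 625 in total RNA, and fell (log2 fold change -0.85, SE 0.16, limma adjusted p = 0.000427). ARP7 (YPR034W) had 869, 959.9 and 640.0 in assemblies and 851, 871 and 871 in total RNA. Its groups overlapped, with assembly 3 below and assembly 2 above all total RNA values (-0.09, SE 0.15, limma adjusted p = 0.588). ARP7 was called lower with equal library totals (-0.66, limma adjusted p = 0.00435), with quantile normalisation (-0.53, limma adjusted p = 0.00313) and with adjustment for length and GC content (-0.53, limma adjusted p = 0.0113).

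All 7 genes of the CHD1 and ISW remodellers, which space nucleosomes into regular arrays, were called higher, where 41.3% of all genes were. IOC3 (YFR013W, chrVI:169922-172285 on the plus strand of R64), the partner of ISW1 in the ISW1a complex, led with 2327, 2904 and 3075 normalised reads in assemblies against 761, 738 and 743 in total RNA (log2 fold change 1.88, SE 0.13, limma adjusted p = 3.26e-07). CHD1 (1.75), IOC2 of the ISW1b complex (1.59), ISW2 (1.55), the ISW2 partner ITC1 (1.37) and ISW1 (1.34) followed. IOC4 (YMR044W), a PWWP-domain subunit of ISW1b and with 1428 nt the shortest of the 7, was lowest, with 395, 501 and 456 against 307, 297 and 304 (0.56, SE 0.13). The groups did not overlap for either gene, but the gap was wide for IOC3 and narrow for IOC4. The median coding length of the 7 was 3363 nt, and 99.2% of all genes of 3000 nt or more were higher. With adjustment for length and GC content, 4 of the 7 were called higher and 3 were not called.

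BDF1 and BDF2 are double-bromodomain proteins that read acetylated histones, and BDF1 is also a subunit of the SWR1 complex. With the deposited scaling their mRNAs moved in opposite directions. BDF1 (YLR399C, chrXII:919536-921596 on the minus strand of R64) had 3479, 4431 and 3771 normalised reads in assemblies against 2359.7, 2301 and 2031 in total RNA (log2 fold change 0.80, SE 0.13, limma adjusted p = 0.000147). BDF2 (YDL070W, chrIV:331024-332940 on the plus strand of R64) had 967, 1009 and 512 against 2512, 2515 and 2083 (-1.57, SE 0.22, limma adjusted p = 3.56e-05). The groups did not overlap for either gene. Assembly 3 was the lowest for BDF2, and without it the log2 fold change was -1.26. The rise of BDF1 depended on the scaling. It was not called with equal library totals (0.23, limma adjusted p = 0.0982) or with quantile normalisation (0.088, limma adjusted p = 0.492). With adjustment for length and GC content BDF1 was called lower (-0.26, limma adjusted p = 0.0455), as was BDF2 (-1.96). The coding sequences are similar in length, 2061 nt for BDF1 and 1917 nt for BDF2, so BDF2 lay far below other members of its length, of which RSC4 (1878 nt) had 0.69 and RSC9 (1746 nt) 0.61.

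Across the 35 members the log2 fold change rose with coding length, with Spearman's rho 0.867 (Pearson's r with log2 length 0.866) over 35 genes measured in the same 6 libraries. Taken singly, assemblies 1, 2 and 3 gave rho 0.855, 0.872 and 0.862. Over all 5502 tested nuclear protein-coding genes rho was 0.677. The members are long: their median coding length was 2439 nt, against 1185 nt over 5894 nuclear genes of the table. All 3 members under 1000 nt (HTL1, LDB7 and SNF6) were lower, as were 70.5% of all genes of that length. From 1000 to below 2000 nt, 6 of 12 were higher and 4 lower, against 39.7% and 35.1% of all genes. From 2000 to below 3000 nt, 9 of 9 were higher, against 82.5% of all genes, of which 4.9% were lower. With so few members per range, no difference from other genes of like length was tested.

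**Figure D2:**
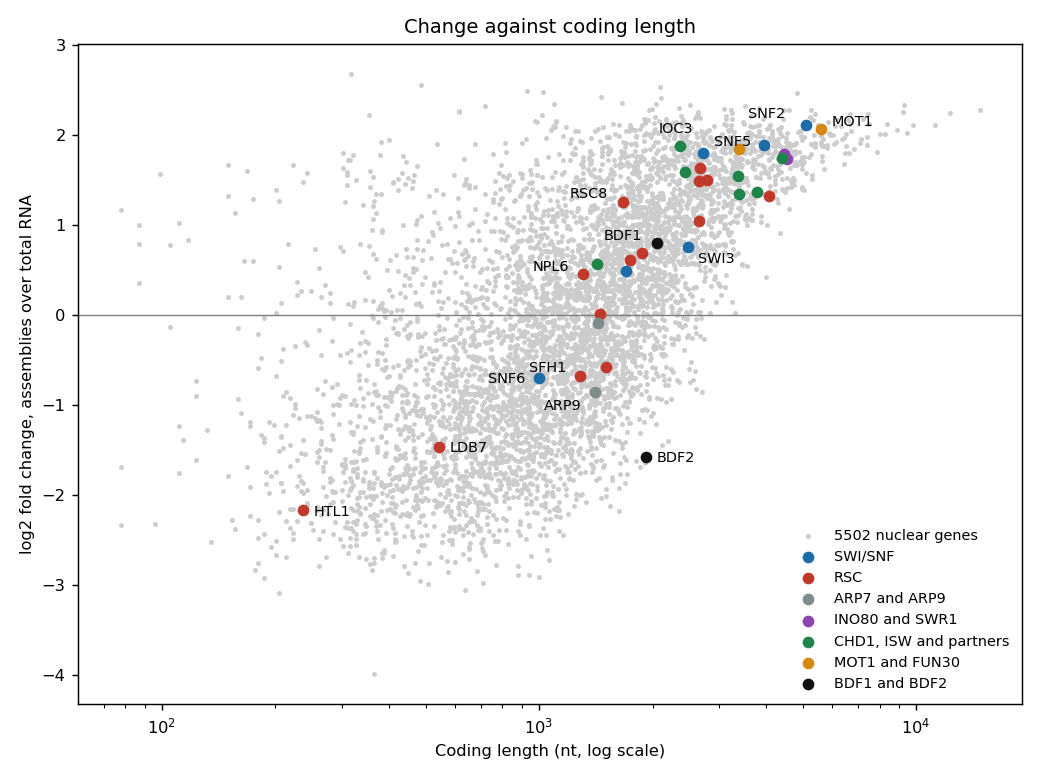
Log2 fold change of assemblies over total RNA (vertical) against coding length in nt on a log scale (horizontal); grey points are 5502 tested nuclear genes and coloured points the 35 members. The members follow the grey cloud from HTL1 (237 nt, -2.17) to SNF2 (5112 nt, 2.11) and MOT1 (5604 nt, 2.06), with BDF2 (1917 nt, -1.57) at its lower edge.

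To give the members relative to genes of like length and GC content, each library was regressed on both over the nuclear genes. The adjusted log2 fold change is what that regression leaves. Its median over the members was 0.021 (-0.013 over the 5502 genes), with 14 called higher, 11 lower and 10 not called, while 34.4% of all genes were higher and 35.3% lower. Of the 35 members, 25 lay within 0.5 of 0 on the log2 scale, where 45.3% of the 5502 genes did. That share covers genes of all lengths, with a median of 1248 nt against 2439 nt for the members. No such share was computed for genes of like length, so the count is not a result about the members. Of the ATPases, INO80 (0.02), SWR1 (0.02), ISW1 (-0.02), MOT1 (0.07) and CHD1 (-0.10) were not called, ISW2 (0.26), SNF2 (0.19) and FUN30 (0.19) were called higher, and STH1 turned lower (-0.25, SE 0.07, limma adjusted p = 0.0105).

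The members that stayed away from 0 fell on both sides. BDF2 was the most displaced, at -1.96 (SE 0.26, limma adjusted p = 0.000199), where length and GC content gave 0.39; only 0.618% of the 5502 genes had a value as low or lower. LDB7 (-1.02, SE 0.12), SNF6 (-0.90, SE 0.12) and HTL1 (-0.68, SE 0.15) also stayed lower, as did ARP9 (-0.56, SE 0.15) and RSC58 (-0.45, SE 0.08). RSC6 (-0.54, SE 0.08), ARP7 (-0.53, SE 0.15), SWI3 (-0.35, SE 0.09) and BDF1 (-0.26, SE 0.10), not lower before the adjustment, were called lower with it. SFH1 did not pass (-0.45, SE 0.23, limma adjusted p = 0.107). IOC3 stood highest, at 0.94 (SE 0.07, limma adjusted p = 1.44e-05), above 86.7% of the genes. NPL6 (0.64, SE 0.10), RSC3 (0.54, SE 0.07), IOC4 (0.49, SE 0.10) and SWI1 (0.44, SE 0.07) followed. The coding lengths hold no untranslated regions, so the full length of each mRNA was not part of this fit.

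**Figure D3:**
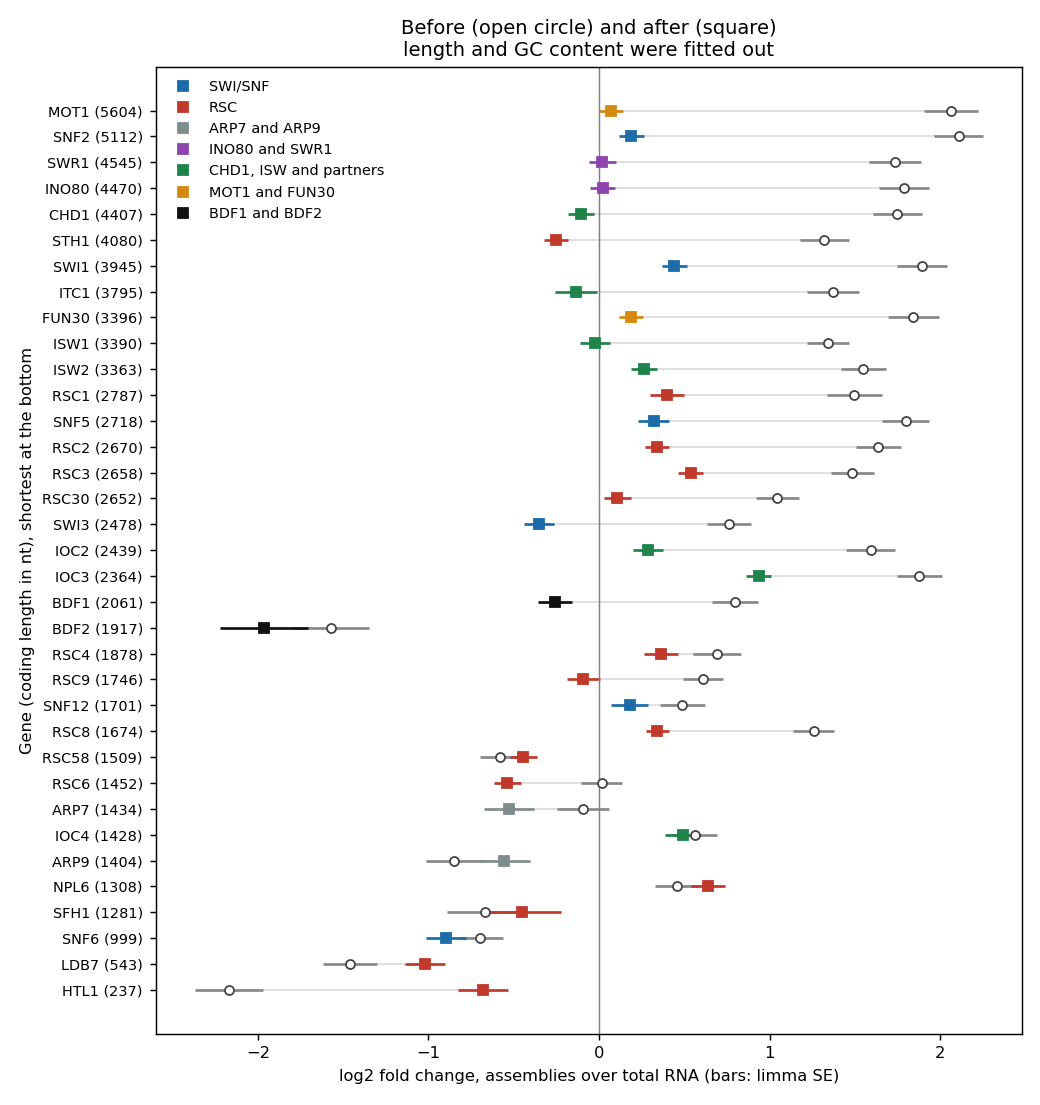
Log2 fold change with its limma SE for each member, ordered by coding length (in nt, in brackets); open circles are the unadjusted values and squares, coloured by complex, those adjusted for length and GC content. Most squares lie within 0.5 of 0, with BDF2 at -1.96 and IOC3 at 0.94 at the ends.

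Homologous subunits were then compared directly, as the ratio of their normalised reads (each plus 1) within each library, which a single factor per library leaves almost as it was. There were 9 pairs, and the ratio in assemblies did not overlap that in total RNA in 8 of them (exact permutation test, 2-sided, p = 0.1, the smallest that 3 libraries against 3 allow; adjusted p = 0.112 over the 9 pairs). None of these tests could pass the threshold, and the values are given with their errors. Among single genes 85.3% already had groups without overlap, so the count of 8 is not a result about these pairs. No such share was computed for ratios of other gene pairs.

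The SWI/SNF subunit had the higher ratio to its RSC relative in assemblies in 3 of 4 pairs. SNF2 and STH1 had near equal reads in total RNA, with SNF2 to STH1 ratios of 1.02, 1.03 and 0.941. Per kb of coding sequence, their total RNA means were 463 for SNF2 and 583 for STH1. In assemblies the SNF2 to STH1 ratios were 1.69, 1.90 and 1.58 (difference of the log2 ratios 0.79, SE 0.09). The ratio of SNF5 to SFH1 went from 1.34, 1.219 and 1.18 to 5.15, 5.60 and 11.3 (2.47, SE 0.37). Assembly 3 was far above the other two, and without it the difference was 2.11. SNF5 has 2718 nt and SFH1 1281 nt, the largest ratio of lengths among the pairs (2.12). SNF12 stayed below RSC6 in every library, but its ratio went from 0.350, 0.303 and 0.313 to 0.454, 0.405 and 0.483 (0.47, SE 0.10). SWI3 and RSC8 went the other way: SWI3 is the longer by a factor of 1.48, yet its ratio to RSC8 went from 0.874, 0.882 and 0.891 to 0.632, 0.577 and 0.668 (-0.50, SE 0.06). With adjustment for length and GC content the difference was 0.44 for SNF2 and STH1, 0.77 for SNF5 and SFH1, 0.72 for SNF12 and RSC6 and -0.69 for SWI3 and RSC8. The first pair of values was thus smaller than the unadjusted ones and the second pair further from 0.

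Among paralogs of nearly equal length, RSC1 and RSC2 had ratios that overlapped between the groups, at 0.649, 0.591 and 0.534 in total RNA and 0.490, 0.545 and 0.573 in assemblies (-0.14, SE 0.10; exact permutation test p = 0.3; 0.06 with the adjustment). The ratio of RSC3 to RSC30, with 2658 and 2652 nt, went from 1.17, 1.20 and 1.15 to 1.63, 1.49 and 1.68 (0.44, SE 0.06; 0.43 with the adjustment). That of ISW1 to ISW2, with 3390 and 3363 nt, went from 1.73, 1.69 and 1.64 to 1.53, 1.46 and 1.39 (-0.21, SE 0.05; -0.29 with the adjustment). ARP7 to ARP9 went from 1.49, 1.40 and 1.39 to 2.16, 2.61 and 2.49 (0.76, SE 0.09), and 0.03 of this was left with the adjustment. Their GC contents are 44.7% and 35.5%. BDF1 and BDF2 had near equal reads in total RNA, with ratios of 0.939, 0.915 and 0.975. Per kb of coding sequence, their total RNA means were 1082 for BDF1 and 1236 for BDF2. In assemblies the BDF1 to BDF2 ratios were 3.59, 4.39 and 7.36 (2.37, SE 0.31). Without assembly 3 the difference was 2.07, and 1.71 was left with the adjustment. The aligned parts of the 9 pairs shared 59.6% to 69.7% of their bases. None of the 35 genes had a near-identical copy (95% identity over 50% of its sequence) among RefSeq coding sequences. Shorter shared stretches were not counted, and sharing of reads over them was not tested.

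**Figure D4:**
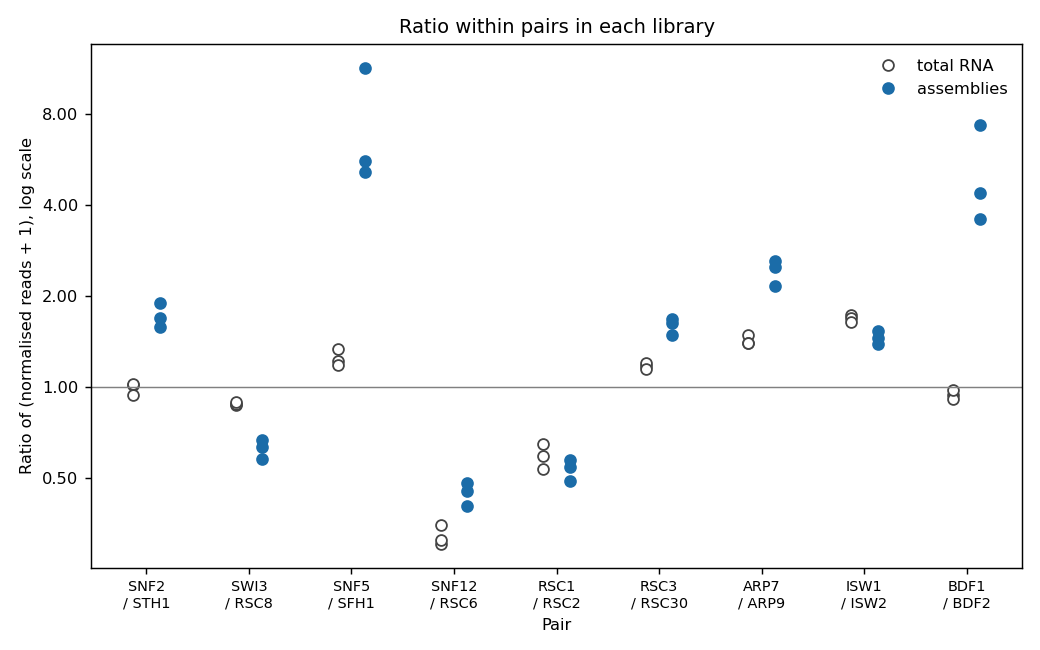
Ratio of normalised reads of the first to the second gene of each pair (vertical, log scale) in the 3 total RNA libraries (open) and the 3 assembly libraries (filled). SNF5 to SFH1 and BDF1 to BDF2 show the widest gaps between groups, SWI3 to RSC8 and ISW1 to ISW2 fall, and RSC1 to RSC2 overlaps.

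Levels per kilobase of coding sequence show how the order of the members changed. In total RNA the highest mean level was that of LDB7 (1809 normalised reads per kb), followed by BDF2 (1236), BDF1 (1082) and RSC8 (709.9), and the lowest were SNF12 (187) and ITC1 (195). In assemblies MOT1 (2529 per kb), SNF2 (2014) and BDF1 (1889) were highest and HTL1 was lowest (89.7). The highest level was 9.24 to 11.7 times the lowest in the total RNA libraries and 18.9 to 35.7 times in the assemblies. Spearman's rho over the 35 members between the level per kb and coding length was -0.171 ± 0.0255 in total RNA and 0.698 ± 0.0550 in assemblies (SD, n = 3 libraries each). ATPase mRNAs took 44.1% ± 0.527 of the reads of all members in total RNA and 60.2% ± 1.85 in assemblies (SD, n = 3 each).

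**Figure D5:**
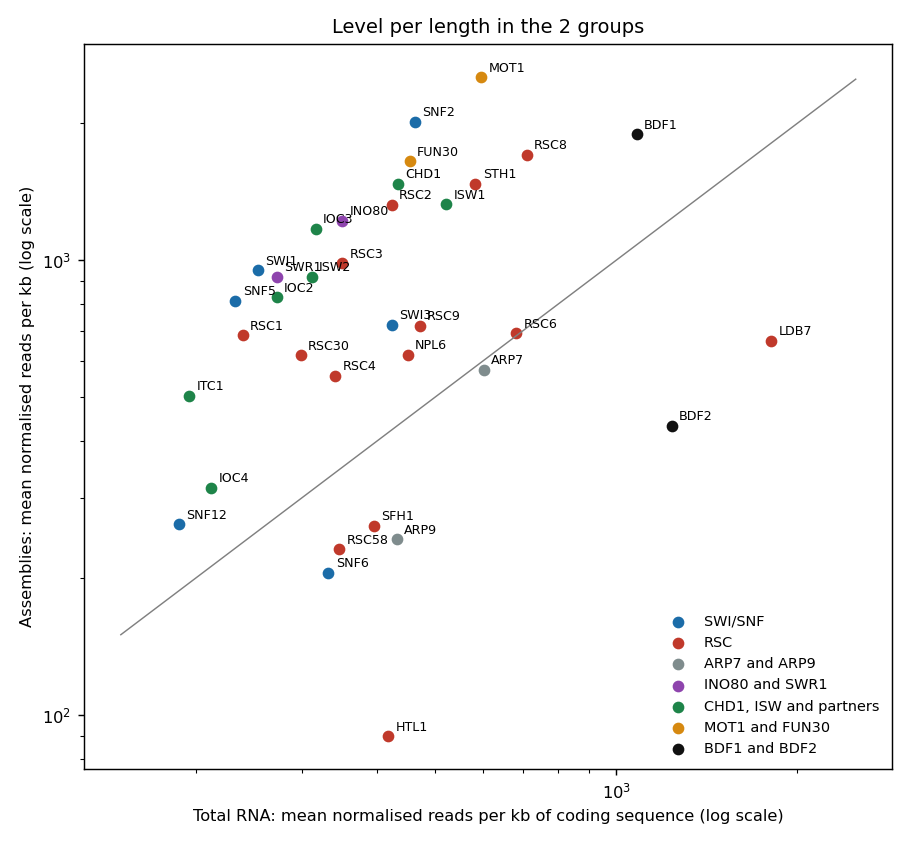
Mean normalised reads per kb of coding sequence in total RNA (horizontal) and assemblies (vertical), both on log scales, for the 35 members coloured by complex; the line marks equal values. MOT1 and SNF2 lie highest, while LDB7 and BDF2, the most abundant in total RNA, lie below the line with HTL1.

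Other genes of the same machinery were taken from 4 lists, whose counts are to be read against the shares of all genes called. None was tested as a list, and the lists differ in length. Median coding lengths were 1128, 550.5, 3067.5 and 1821 nt, in the order given below. Of all genes under 1000 nt 70.5% were lower, and of those of 3000 nt or more 99.2% were higher. Adjusted for length and GC content, the list medians were 0.15, -0.11, 0.13 and -0.09. Of 21 further subunits of INO80 and SWR1, 8 were higher and 9 lower (median log2 fold change -0.04), where 41.3% and 40.8% of all genes were, from IES5, a small INO80 subunit, at -2.33 (SE 0.24), to SWC7, a small SWR1 subunit, at 1.94 (SE 0.18). SWC7 has a coding sequence of 399 nt and an adjusted value of 2.98. Of 6 accessory subunits, 1 was higher and 4 lower (median -1.12): SWP82 of SWI/SNF rose (0.52, SE 0.13; -0.05 and not called with equal library totals) and DLS1 of the ISW2 complex was lowest (-1.40, SE 0.15).

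Of 8 other ATPases of the Swi2/Snf2 family, 7 were higher and 1 lower (median 1.44). ULS1 led with 2.03 (SE 0.15), and IRC5, with 2562 nt, was lower at -0.72 (SE 0.12) with an adjusted value of -1.71. Of 13 histone chaperones and partners, 7 were higher and 4 lower (median 0.66), from the elongation factor and chaperone SPT6 at 2.03 (SE 0.15) to the HMG-box protein NHP6B at -1.65 (SE 0.17), whose gene overlaps YBR090C.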

How the data were processed

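RNA-seq libraries of pelleted RNA assemblies (3) and total RNA (3) were grouped by sample title. The build was R64 and the tools were Bowtie 0.12.7 and Trimmomatic 0.32, with HTSeq, FastQC and DESeq 1.22.1, per the submitters' processing notes. The sources used here do not state the strand setting, the annotation or how multi-mapping reads were counted. The authors deposited a signal (normalised reads per open reading frame, per the file headers), group means and a fold (the ratio of these means), which were not used. All nonzero signal values (100%) were whole multiples of 1 read within 0.01, so reads could be recovered. The table held 6603 open reading frames and 4 lines without values; 5915 matched a RefSeq coding sequence of R64, with all 35 members.

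Groups were compared with limma 3.58.1 in R 4.3.3, with the trend option, on log2(value + 1) over genes with a mean of at least 10, with Benjamini-Hochberg adjustment over all 5670. Fold changes are on that scale, which understates those of weakly expressed genes. For adjusted values, coding length and GC content were fitted out of each library by natural splines of 4 df each. Alternatives were other pseudocounts, filters, scalings and tools (edgeR 4.0.16 and DESeq2 1.42.0 on recovered reads), a replicate block and leaving out each library. The fit was tested on simulated data with 1 common dispersion, where 80, 54 and 65 of 5670 genes changed 1.5-fold, 2-fold and 4-fold. It called 51.25% of the 1.5-fold changes, 94.4% of the 2-fold and 100% of the 4-fold changes. In the data 82.2% of genes were called, which makes the adjusted threshold less strict, so these rates do not carry over. Changes of about 1.5-fold were partly missed in the simulation, and how many are missed in the data was not tested. Near-identical copies were sought with BLAST+ 2.17.0 (95% identity over 50% of the sequence), and pairs were aligned with Biopython 1.88.

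All 35 members are named. Values in every library are given for extremes of the larger complexes, the smaller groups, the pairs and uncalled or lower members, and in the other lists the highest and lowest called gene is named. The members and lists were chosen with earlier results of these data known.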

Additional observations from a re-analysis of the deposited data

How the results depend on the processing

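The counts of 26 members higher and 7 lower were the same with pseudocounts of 0.5 and 5, with no filter, without the trend, with edgeR (26 and 7), with DESeq2 (26 and 7) and with any library left out. On the recovered reads of all genes edgeR called 2232 higher and 2471 lower, where limma called 2342 and 2316. No paired reading was made: deviations of same-numbered libraries correlated with r of 0.078, 0.167 and 0.276, and not every library correlated best with its own number. The replicate block gave 26 and 7, with a median log2 fold change of 1.26. With length and GC content fitted out, without and with the replicate block, 14 members were higher in both cases and 11 and 12 lower (the log2 fold change of SFH1, -0.45, had a limma adjusted p of 0.107 without and 0.0393 with the block), the median was 0.021 and rho with coding length 0.329. Equal library totals gave a median of 0.69 and quantile normalisation 0.64 (rho 0.810; 22 higher and 9 lower). The median after length and GC content was -0.0552 with 2 df, -0.13 with quantile normalisation and from -0.015 to 0.059 with a library left out. Other INO80 and SWR1 subunits called lower numbered 5 with length and GC content fitted out, with or without the block, accessory subunits lower 2, other ATPases higher 3 and lower 2; accessory subunits higher numbered 0 with equal totals and 2 with quantile normalisation.

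Values changed sign as follows, and the cause was not tested. With length and GC content fitted out, with or without the block, SWI3 was -0.35, STH1 -0.25, RSC6 -0.54, RSC9 -0.092, CHD1 -0.10, ISW1 -0.024, ITC1 -0.13 and BDF1 -0.26. With equal library totals SNF12 was -0.0769, RSC6 -0.55, NPL6 -0.11, IOC4 -0.000886 and SWP82 -0.0470. RSC6 was -0.52 with quantile normalisation, -0.0792 with edgeR and between -0.040 and 0.057 with a library left out, where ARP7 ranged from -0.21 to 0.079. The RSC1 to RSC2 difference was 0.0426 with quantile normalisation and 0.0599 with length and GC content fitted out. HTL1, at 16 to 20 reads per assembly library, is where depth limits precision most.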
